A study of Mus musculus with 4 samples.

Results

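Solute carriers are the membrane proteins that move sugars, amino acids, ions, metals, nucleosides, vitamins and drugs across cell and organelle membranes, and their genes carry the symbol Slc with a family number. Here the members were the genes whose symbol is Slc followed by a digit and that were listed in the angiotensin II, the salt-sensitive and the control tables, after 8 well known carriers had been set aside (Slc12a1, Slc12a3, Slc34a1, Slc5a2, Slc5a12, Slc22a12, Slc6a6 and Slc5a3). This left 219 of the 11049 genes that the 3 tables share. The symbol rule also takes in a few genes that are not transporters, among them the adaptor proteins Slc9a3r1 and Slc9a3r2. The rule uses symbols and the listing of a gene in each table, and no level or difference.

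The data are droplet single-cell RNA counts from whole kidneys of C57BL/6J mice aged 10 to 14 weeks, in 4 groups of 1 library each. One group had angiotensin II-induced hypertension (label A2 HTN) and its control received saline (A2 Ctrl). Another had salt-sensitive hypertension (SS HTN) and its control ate a normal diet (SS Ctrl). The kidneys of all mice of a group were combined before dissociation, and cells were enriched with beads against CD31 and then podoplanin. The deposited control table holds both controls under barcode endings 1 and 2, called control library 1 and control library 2 below. The sources used here do not say which model each belongs to, how many mice were combined, or how the salt-sensitive model was made. Levels are in CPM, the UMIs of a gene (unique molecular identifiers, each a captured 3′ transcript end) per 1000000 UMIs of the shared genes, summed over the cells of a class in 1 library. Because only 3′ ends were counted, no value was scaled by transcript length. Sets of 4 values are always in the order angiotensin II, salt-sensitive, control 1, control 2.

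In the kidney, carriers work in pairs across the tubule wall. Apical carriers of the proximal tubule take up filtered glucose, amino acids, citrate and sulfate, usually driven by sodium, and basolateral carriers pass them to the blood. Basolateral organic anion and cation carriers do the reverse and deliver drugs and toxins for secretion. Endothelial cells line the vessels beside the tubule and depend on facilitative carriers for nucleosides, glucose and amino acids, while mitochondrial carriers of family 25 serve every cell that respires.

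Cells were called endothelial when Pecam1, Cdh5, Kdr and Tie1 together reached 3 UMIs and 12 per 10000, and all remaining cells are called other cells. The endothelial class held 1225, 1519, 19 and 126 cells with 5525341, 3965775, 34358 and 343076 UMIs, and the other class held 1612, 1765, 2387 and 1882 cells with 1369986 to 2740944 UMIs. Against the labelled CD31 and podoplanin selection, most cells of each library therefore lay outside the gate, although the endothelial class held most UMIs of both hypertension libraries, and Pdpn, Lyve1, Reln and Mmrn1 are not analysed here because they are not among the shared genes. Endothelial markers outside the gate (8 genes with Egfl7, Emcn and Flt1) summed to 6956 to 14890 CPM in endothelial and 900 to 2282 in other cells. The 8 proximal tubule markers summed to 2886 to 3649 in other cells and to 142, 231, 1368 and 192 in endothelial cells, so control library 1 stands apart. In that library 1 endothelial UMI equals 29.1 CPM and 64 of the 219 genes were listed at 0, where a count of 0 allows up to 87.3 CPM. Pairs of libraries shared 0 to 2 barcodes.

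Most carriers were lower in endothelial cells. Of 219 genes, 144 (65.8%) fell and 28 (12.8%) rose relative to other cells, and 47 were not called (edgeR quasi-likelihood test over 4 libraries with the library as a block, Benjamini-Hochberg adjusted p under 0.05 over 11049 genes). Over all genes tested, 36.8% fell and 33.6% rose. The median log2 difference of the 219 genes was -1.54, against -0.09 over all genes. The 144 genes were lower in each of the 3 libraries other than control 1, and 125 of them in all 4 libraries. Of the 28 genes that rose, 26 were higher in each of the 3 libraries other than control 1, and 21 in all 4 libraries. Among the 28, 4 had no UMI in the endothelial cells of control 1. Summed over the 219 genes, the carriers made up 7541, 7602, 15135 and 7715 CPM in endothelial cells and 24479, 24485, 27243 and 26343 in other cells. Scaling by library totals in place of TMM factors shifted the log2 difference of all genes by -0.26 at the median and gave 155 lower and 26 higher carriers. Over all 11049 genes it gave 4906 lower and 3076 higher. Without control library 1 the counts were 139 lower and 32 higher carriers, beside 3854 lower and 4148 higher of all genes.

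Classes of carriers, taken from the family number, differed in how they fell between the cells. All 3 sulfate and dicarboxylate carriers of family 13 fell (median log2 difference -3.96), as did 20 of 22 organic ion carriers (-3.77), 10 of 11 monocarboxylate carriers (-3.64), 10 of 11 bicarbonate and anion exchangers (-3.51) and 22 of 30 amino acid carriers (-2.65). At the other end, 3 of 5 choline and heme carriers rose (median 1.04). Zinc, copper, iron and magnesium carriers were split, with 6 higher and 8 lower of 21 and a median of -0.20. Nucleotide sugar and other secretory membrane carriers had 4 higher, 9 lower and 7 not called of 20 (median -0.09). Mitochondrial carriers had 4 higher, 20 lower and 13 not called of 37 (median -0.87). Families were not homogeneous: in 16 of the 35 families with more than 1 member here, the adaptors counted as one, some members rose and others fell.

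**Figure D1:**
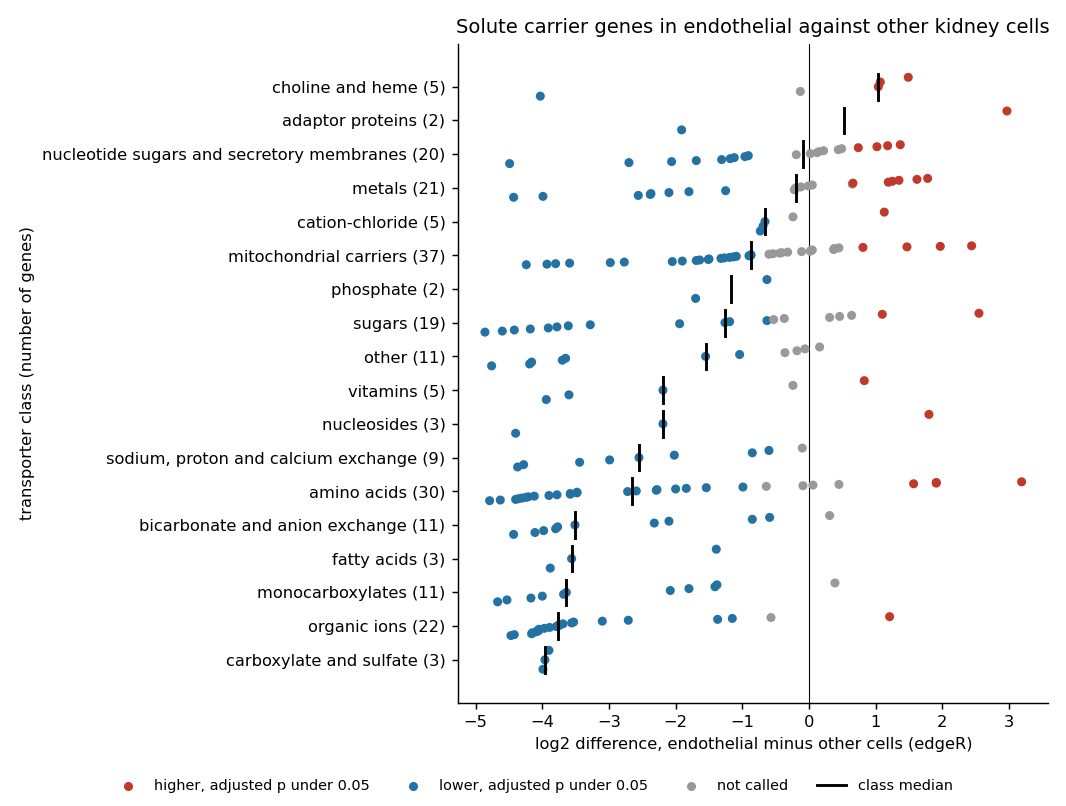
Each point is 1 solute carrier gene at its log2 difference between endothelial and other cells (edgeR, x axis), in rows by transporter class with the number of genes, and black bars are class medians. Class medians run from -3.96 for carboxylate and sulfate carriers to 1.04 for choline and heme carriers, and most classes hold points on both sides of 0.

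Among amino acid and nucleoside carriers the endothelial side was led by Slc43a3, an equilibrative carrier of purine nucleobases (protein-coding, chr2:84936579-84958509 in GRCm38). Its level was 319, 234, 146 and 283 CPM in endothelial and 41.9, 38.5, 21.9 and 23.4 in other cells (log2 difference 3.19, SE 0.23, edgeR adjusted p 2.78e-07). Every endothelial value lay above every value of other cells. Slc43a2, a carrier of large neutral amino acids in the same family, ran the other way at 12.1, 17.1, 116 and 14.6 against 317, 287, 330 and 226 (-3.90, SE 0.30). Slc29a1, the equilibrative nucleoside carrier ENT1, was higher in endothelial cells at 111, 84.7, 87.3 and 96.2 against 30.1, 33.6, 34.3 and 35 (1.80, SE 0.20), while the concentrative nucleoside carrier Slc28a1 fell (-4.4). Slc36a4 and Slc38a2, both amino acid carriers, rose by 1.91 (SE 0.25) and 1.57 (SE 0.22), and their relatives Slc36a1 and Slc38a1 fell (-2.72 and -2).

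The heavy chains that carry the family 7 amino acid transporters to the membrane were divided between the cells. Slc3a2, the CD98 heavy chain, stood at 222, 164, 87.3 and 181 CPM in endothelial and 58.6, 60.2, 42.7 and 51.8 in other cells (log2 difference 1.91, SE 0.20). Slc3a1, the rBAT heavy chain of cystine uptake, stood at 3.80, 6.30, 146 and 8.74 against 161, 129, 167 and 115 (-4.21, SE 0.41). For Slc3a2 the classes did not overlap, and for Slc3a1 they did so only through control 1, with its 19 endothelial cells. Slc7a9, the light chain that pairs with rBAT and is mutated in cystinuria, was among the lowest of all members in endothelial cells at 1.09, 2.52, 0 and 2.91 against 78.0, 41.8, 59.5 and 75.2 (-4.79, SE 0.36). Of the light chains that pair with CD98, Slc7a7 and Slc7a8 also fell (-2.29 and -4.4) and Slc7a6 was not called (0.45, SE 0.31). Slc7a5, Slc38a5, the urea carrier Slc14a1 and the metal carrier Slc11a1 are not analysed here because they are not listed in all 3 tables.

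The adaptor Slc9a3r2 (NHERF2), which tethers ion transporters and receptors to the membrane skeleton, had the highest level of the 219 genes in endothelial cells of 3 libraries. It was at 1430, 1236, 495 and 1361 CPM there and at 290, 284, 59.8 and 92.7 in other cells (2.97, SE 0.32, edgeR adjusted p 2.64e-06). Its relative Slc9a3r1 (NHERF1), known from the proximal tubule brush border, was at 19, 27.2, 58.2 and 20.4 against 108, 106, 98.5 and 94.9 (-1.91, SE 0.21). The paralogs thus had opposite directions in each of the 4 libraries. Slc50a1, a member of the SWEET sugar carriers, was at 233, 186, 87.3 and 315 in endothelial and 50, 55.7, 13.5 and 38 in other cells (2.55, SE 0.23). In control library 1 the endothelial values of Slc43a3, Slc9a3r2, Slc50a1, Slc3a2 and Slc38a2 were the lowest of the 4. Without that library their log2 differences were 3.34, 3.08, 2.64, 2.08 and 1.79.

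**Figure D2:**
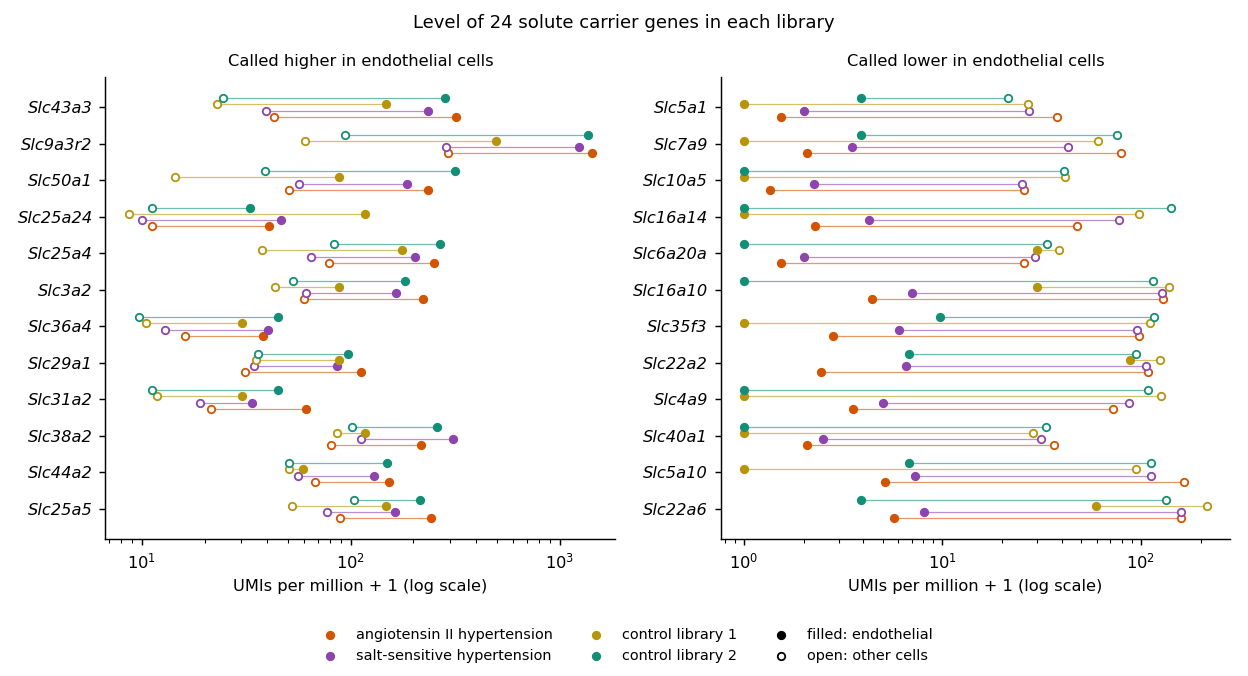
CPM plus 1 (log axis) for the 12 genes with the largest increases and the 12 with the largest decreases in endothelial cells that kept their direction in every library, with filled points for endothelial cells, open points for other cells and 1 colour per library. For Slc43a3 the filled points lie between 146 and 319 CPM and the open points between 21.9 and 41.9.

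Glucose and related carriers of family 5 fell in 5 of 6 members here. Slc5a1, the apical sodium-glucose carrier SGLT1, had the largest decrease of all 219 genes, at 0.543, 1.01, 0 and 2.91 CPM in endothelial and 36.6, 26.2, 25.9 and 20.4 in other cells (-4.86, SE 0.43). Slc5a10, a mannose and fructose carrier, Slc5a11, an inositol carrier, the monocarboxylate carrier Slc5a8 and the mannose carrier Slc5a9 also fell (log2 differences -4.42, -4.60, -3.91 and -3.61). Slc5a6, which carries biotin and pantothenate, was not called (-0.53, SE 0.37). Slc2a1, the facilitative glucose carrier GLUT1 that endothelium of the brain is known for, was low in both classes at 17.6, 10.3, 0 and 17.5 against 12.4, 16, 16.1 and 8.76 CPM, and was not called (0.31, SE 0.34). Slc2a2, the basolateral glucose carrier of the proximal tubule, fell by 3.78.

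Chloride-coupled carriers of family 12 had a median log2 difference of -0.66 and were called in both directions. Slc12a7, the potassium-chloride cotransporter KCC4, was at 57.6, 44.9, 29.1 and 55.4 CPM in endothelial and 103, 101, 102 and 87.6 in other cells (log2 difference -0.69, SE 0.19, edgeR adjusted p 0.00617). The classes did not overlap. Slc12a9 fell (-0.66), Slc12a2, the sodium-potassium-chloride cotransporter NKCC1, was not called (-0.24, SE 0.19), and Slc12a4, the potassium-chloride cotransporter KCC1, rose (1.13, SE 0.20). The call of Slc12a7 was lost without the salt-sensitive library (-0.58), and that of Slc12a9 without control library 1 (-0.56, adjusted p 0.0593), without the angiotensin II library (-0.68) and without the salt-sensitive library (-0.54). No carrier of family 34 was left among the members.

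The carriers of highest level in other cells served ions, fatty acids and mitochondria. Slc8a1, the plasma membrane sodium-calcium exchanger NCX1, was at 1324, 2538, 2269 and 2358 CPM there and at 47.6, 249, 990 and 84.5 in endothelial cells (-3.44, SE 0.46). Slc4a4, the sodium-bicarbonate cotransporter by which the proximal tubule returns bicarbonate to blood, was at 1231, 1158, 1308 and 1174 against 27, 77.7, 437 and 70.0 (-3.77, SE 0.44). Slc27a2, a fatty acid carrier and acyl-CoA synthetase, and Slc25a21, a mitochondrial oxodicarboxylate carrier, reached 1040 to 1614 and 1093 to 1309 in other cells and fell in endothelial cells (-3.88 and -3.80). For all 4 genes the highest endothelial value was that of control library 1 with its 19 cells, and without that library the log2 differences were -3.89, -4.16, -4.48 and -4.29. Slc4a9, an anion exchanger of intercalated cells, and Slc9a3, the apical sodium-proton exchanger NHE3, also fell (-4.43 and -4.37).

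Organic ion carriers fell in endothelial cells in 20 of 22 genes. The basolateral uptake carriers Slc22a6 (OAT1), Slc22a8 (OAT3) and Slc22a2 (OCT2) fell (log2 differences -4.42, -3.79 and -4.47). Slc22a6 was at 158, 158, 215 and 133 CPM in other cells and at 4.71, 7.06, 58.2 and 2.91 in endothelial cells. The apical extrusion carrier Slc47a1 (MATE1) was at 719, 711, 804 and 714 against 19, 39.6, 437 and 35 (-3.75, SE 0.48). Slc22a15 was the one organic ion carrier that rose (1.21, SE 0.29) although control 1 had no UMI of it, and Slc22a17 was not called (-0.57, SE 0.33). Slc16a10, an aromatic amino acid carrier, Slc16a14, Slc10a5, the imino acid carrier Slc6a20a and the family 35 member Slc35f3 complete the 12 largest decreases with 1 direction in every library, with log2 differences between -4.76 and -4.49. The sources used here do not say how reads shared by near-identical copies (Slc6a20a and Slc6a20b, Slc22a28 and Slc22a30, Slc25a4 and Slc25a5) were counted, so the split within those pairs is uncertain.

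Metal carriers gave opposite answers within a family. Slc31a2, the low-affinity copper carrier CTR2, was at 60.1, 32.8, 29.1 and 43.7 CPM in endothelial and 20.4, 18, 10.9 and 10.2 in other cells (1.62, SE 0.24), whereas Slc31a1, the high-affinity copper carrier CTR1, fell by 1.80 (SE 0.21). Both lie side by side on chr4:62262562-62391769. Slc40a1, the iron exporter ferroportin, was at 1.09, 1.51, 0 and 0 against 35.5, 30.3, 27.7 and 32.1 (-4.43, SE 0.37), and Slc39a8, a zinc and manganese importer, at 2.71, 1.51, 29.1 and 5.83 against 15.6, 20.5, 23.7 and 29.2 (-2.56, SE 0.40). Of 9 zinc importers of family 39, Slc39a1, Slc39a3 and Slc39a10 rose, Slc39a8, Slc39a11 and Slc39a14 fell and 3 were not called.

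In family 25, the mitochondrial carriers, 4 of 37 members rose in endothelial cells. Slc25a4 and Slc25a5, the exchangers of ADP and ATP, were at 251, 202, 175 and 268 and at 242, 162, 146 and 213 CPM there, against 78.0, 63.5, 36.5 and 82.5 and 87.6, 75.7, 51.4 and 103 in other cells (log2 differences 1.97 and 1.47, SE 0.18 each). Slc25a24, an ATP-magnesium and phosphate carrier, rose by 2.44 (SE 0.27), and Slc25a3, the phosphate carrier, by 0.81 (SE 0.22), a call lost without the angiotensin II library (0.57). The other 20 called members of family 25 fell, among them further ATP-magnesium and phosphate carriers, Slc25a23 (-2.05) and Slc25a25 (-0.87), the pyrimidine nucleotide carrier Slc25a36 (-0.90), the coenzyme A carrier Slc25a42 (-3.59), the NAD carrier Slc25a51 (-1.19) and the aspartate-glutamate carriers Slc25a12 (-1.69) and Slc25a13 (-3.93). The choline carriers Slc44a1 and Slc44a2 rose by 1.04 and 1.49 (SE 0.18 and 0.20) while Slc44a4, of the same family, fell by 4.03.

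The low endothelial levels of the carriers that fell were set beside those of tubule markers. In the angiotensin II library the 8 proximal tubule markers in endothelial cells summed to 3.89% of their level in other cells, and the 8 distal markers held (among them Umod, Egf, Calb1 and Aqp2) to 23.5%. In the salt-sensitive library and control libraries 1 and 2 the proximal markers were at 8.01, 38.6 and 5.29%, and the distal markers at 22.7, 67.2 and 17.8%. Over all 144 carriers that fell, the median was 6.79, 10.0, 41.7 and 9.51%, above the proximal and below the distal markers in each library. Of the 144, 60, 62, 65 and 50 were at or below the proximal markers, and 102, 96, 102 and 95 at or below the distal markers. The 75 carriers that were at least 8-fold lower had medians of 2.69, 6.65, 36.6 and 5.04%, values that their choice by size holds low. Across the 4 libraries both the markers and the 144 carriers were highest in control library 1. The part of RNA from other cells in these low levels was not tested. In the reverse direction, other cells held 2282, 2242, 900 and 977 CPM of the endothelial markers outside the gate, against 14890, 11080, 6956 and 14148 in endothelial cells, and the part of such RNA in the levels of endothelial carriers in other cells was not tested either.

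**Figure D3:**
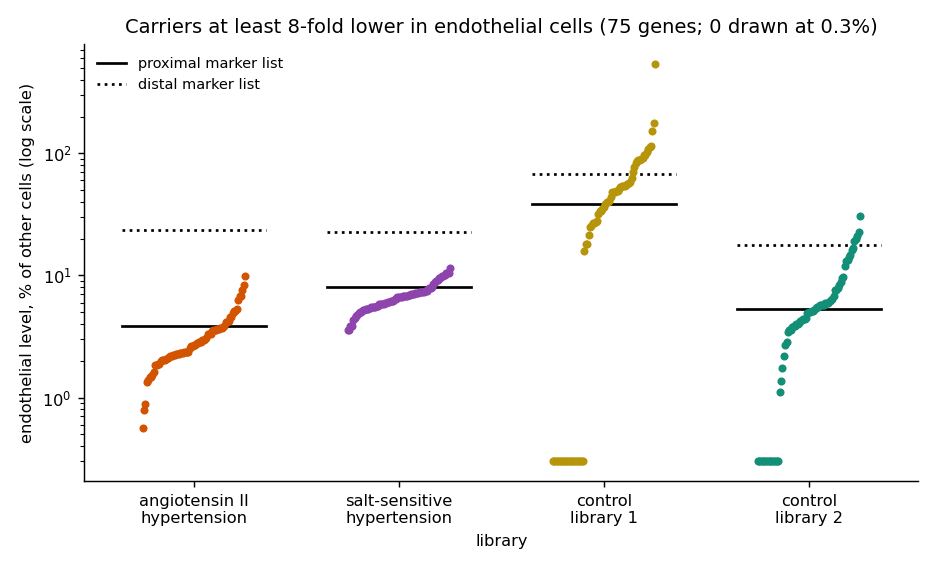
Endothelial level as a percentage of the level in other cells (log axis) for the 75 carriers at least 8-fold lower in endothelial cells, by library, with the percentages of the summed proximal (solid) and distal (dotted) marker lists. The medians are 2.69, 6.65, 36.6 and 5.04%, the genes were chosen for their low endothelial level, and genes at 0 are drawn at 0.3%.

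Some carrier genes lie next to each other. With gaps of at most 200000 bases, 40 members formed 18 groups, and 30 of these 40 genes fell in endothelial cells, beside 65.8% of all members. In 10 groups every gene fell, in none did every gene rise, and in 4 groups neighbours had opposite calls. One of these is on chr19:8335371-8723369, where Slc22a30, Slc22a8 and Slc22a6 fell (-3.53, -3.79 and -4.42) and Slc3a2 rose (1.91). Promoter windows of Slc22a8, Slc22a6 and Slc3a2 are shown because these neighbours part in direction. Only windows with a match to a searched motif were printed, and Slc22a30 had no such window. RefSeq windows (GRCm38.p6) of the 250 bases before the start of transcription are given 5′ to 3′ on the gene's strand, at chr19:8592932-8593181 (plus strand) for Slc22a8, chr19:8617746-8617995 (plus strand) for Slc22a6 and chr19:8713898-8714147 (minus strand) for Slc3a2. For Slc22a8 and Slc3a2 the RefSeq start lies within the GENCODE gene. Capitals mark GTTAAT, the core of the site of the epithelial factor HNF1, in the first 2 and CGGAAG, the core of ETS factor sites, in Slc3a2, searched on both strands.
Slc22a8 promoter window: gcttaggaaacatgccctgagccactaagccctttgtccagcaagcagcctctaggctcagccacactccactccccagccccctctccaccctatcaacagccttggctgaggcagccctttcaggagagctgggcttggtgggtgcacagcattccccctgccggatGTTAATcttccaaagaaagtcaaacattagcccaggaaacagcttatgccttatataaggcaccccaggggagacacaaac
Slc22a6 promoter window: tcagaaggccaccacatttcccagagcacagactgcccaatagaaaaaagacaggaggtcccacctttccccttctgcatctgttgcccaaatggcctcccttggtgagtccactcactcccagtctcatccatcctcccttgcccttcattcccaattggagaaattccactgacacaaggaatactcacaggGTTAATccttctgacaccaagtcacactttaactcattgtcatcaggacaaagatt
Slc3a2 promoter window: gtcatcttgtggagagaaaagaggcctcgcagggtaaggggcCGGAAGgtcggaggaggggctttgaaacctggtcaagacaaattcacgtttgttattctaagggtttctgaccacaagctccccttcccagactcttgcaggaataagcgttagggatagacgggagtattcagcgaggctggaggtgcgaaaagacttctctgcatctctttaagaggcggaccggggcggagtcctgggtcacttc
The HNF1 core stands 81 bases before the start in Slc22a8 and 56 in Slc22a6, and the ETS core 208 bases before it in Slc3a2. Windows were found for 168 of the 219 genes. GTTAAT or its complement occurred in 9 of 106 windows of carriers that fell (8.49%), in 0 of 25 of carriers that rose and in 5.33% of 8763 windows of all shared genes. CGGAAG or its complement occurred in 9 of 25 windows of carriers that rose (36%), in 16 of 106 that fell (15.1%) and in 29.5% of all, and among the 56 windows of carriers at least 8-fold lower in 1 (1.79%). Of the 250 bases, a median of 14 CG pairs stood in windows of carriers that rose, 11 in those that fell and 16 in all. These are shares of letters, and binding was not measured.

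Differences between the 2 classes of tubule-leaning cells defined next were far smaller, but these classes are mixed and are not pure segments. Even the proximal markers that chose them were at 1770 to 2155 CPM in distal-leaning and 4020 to 5893 in proximal-leaning cells. Among other cells, those with at least 3 UMIs of the 8 proximal markers (among them Lrp2, Cubn, Miox and Gatm) and more of them than of distal markers are called proximal-leaning (884, 772, 1257 and 684 cells), and the converse distal-leaning (113, 267, 316 and 202 cells). Of 219 carriers, 12 (5.48%) were higher and 5 (2.28%) lower in proximal-leaning cells (edgeR, 4 libraries, library as a block), against 0.997% and 2.81% of 11029 genes. Among the largest increases were those of Slc52a2, a riboflavin carrier (log2 difference 1.02, SE 0.28), Slc13a2, the apical citrate carrier (0.70, SE 0.21), Slc5a10 (0.66, SE 0.17) and Slc16a12, a creatine carrier (0.61, SE 0.15). Slc13a1, the apical sulfate carrier, was at 1016, 710, 664 and 754 CPM in proximal-leaning and 515, 573, 595 and 515 in distal-leaning cells (0.48, SE 0.11, edgeR adjusted p 0.00234). Its groups did not overlap, but the gap in control library 1 was narrow. Slc22a28 rose by 0.40, and Slc4a4, Slc25a21, Slc27a2 and Slc47a1 by 0.39 to 0.33.

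The 5 carriers higher in distal-leaning cells were Slc8a1, Slc29a1, Slc25a5, Slc16a7 and Slc25a3. Slc8a1 was at 3407, 2985, 2410 and 3989 CPM in distal-leaning and 1122, 2777, 2289 and 2056 in proximal-leaning cells (-0.63, SE 0.12, edgeR adjusted p 0.000255). Only the angiotensin II library and control 2 separated them by more than 1.5-fold. Slc29a1 was at 66.0, 47.6, 39.3 and 86.7 against 19.9, 23.7, 34.5 and 13.6 (-1.10, SE 0.28), and Slc25a5 and the monocarboxylate carrier Slc16a7 differed by -0.89 and -0.49. The classes were mixed: distal-leaning cells held 1770, 1905, 2155 and 2097 CPM of the proximal list, against 4800, 4020, 4487 and 5893 in proximal-leaning cells. Macrophage markers were at 264, 956, 490 and 2981 in distal-leaning and 294, 270, 263 and 1067 in proximal-leaning cells, and endothelial markers outside the gate were at 2569, 1712, 933 and 1024 against 1659, 1472, 883 and 793. Slc29a1, Slc25a5 and Slc25a3 are also among the carriers that rose in endothelial cells. The part of these markers' cells in the differences was not tested. The calls rested on the fit: DESeq2 called 0 carriers (edgeR found 52 of 219 at an unadjusted p under 0.05), the fit with no library block 0, and leaving out the angiotensin II, the salt-sensitive library or control 2 gave 3, 5 and 6 calls, of which 2, 5 and 5 were among the 17. Calls over all genes fell too, from 110 higher and 310 lower to 9 and 152 with DESeq2 and 7 and 18 with no block. They were 23 and 229, 32 and 222, and 30 and 247 without these libraries.

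**Figure D4:**
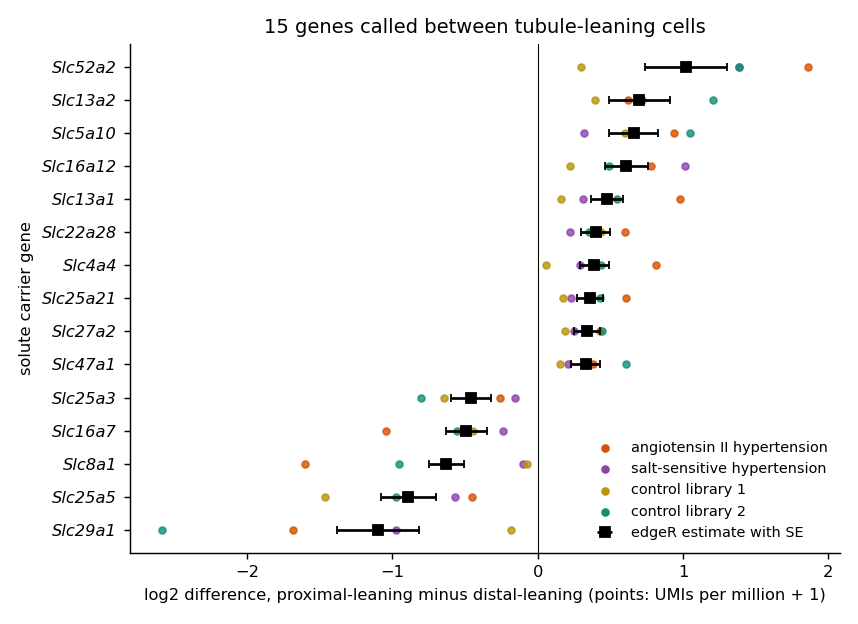
Log2 difference between proximal-leaning and distal-leaning cells for 15 carriers called, with the edgeR estimate and its standard error in black and the log2 ratio of CPM plus 1 in each library as coloured points. Estimates run from -1.10 for Slc29a1 to 1.02 for Slc52a2.

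Hypertension was compared with control as 2 libraries against 2, so that the difference between models counts as spread. In endothelial cells 0 of 202 carriers tested were called by edgeR and 0 by DESeq2, as were 0% of 10739 genes. At an unadjusted p under 0.05 there were 8 carriers and 249 genes. The 3 of smallest p were not called: Slc9a3, at 3.08 and 4.79 CPM in the hypertension and 87.3 and 17.5 in the control libraries (p 0.0112), Slc25a38, a mitochondrial glycine carrier, at 22.4 and 19.4 against 0 and 2.91 (p 0.0131), and Slc27a2, at 26.1 and 60.8 against 786 and 55.4 (p 0.0206), each with an edgeR adjusted p of 1. For Slc27a2 the salt-sensitive value lay above that of control 2. The control endothelial cells together held 377434 UMIs, and a count of 0 there allows up to 7.95 CPM. Slc16a1, the lactate and pyruvate carrier MCT1, was at 19.9 and 7.31 in the hypertension libraries and had no UMI in either control.

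In other cells 1 of 219 carriers was called (0.457%), against 0.416% of 11049 genes higher in hypertension. This was Slc9a3r2, at 290 and 284 CPM in the angiotensin II and salt-sensitive libraries and 59.8 and 92.7 in the controls (log2 difference 1.94, SE 0.24, edgeR adjusted p 0.0271). The groups did not overlap. Endothelial markers moved with it: the 4 gate genes summed to 397 and 434 CPM in other cells of the hypertension and 190 and 200 in those of the control libraries, and the 8 endothelial markers outside the gate to 2282 and 2242 against 900 and 977. In other cells without any gate UMI Slc9a3r2 was at 251 and 158 against 57.4 and 63.6. There 0 of 11038 genes were called, so the call of Slc9a3r2 was lost with all others (1.77, edgeR adjusted p 0.105). It was also lost without the angiotensin II library (1.94, adjusted p 0.338) or the salt-sensitive library (1.95, adjusted p 0.239), and the log2 difference was 1.62 without control 1 and 2.29 without control 2. Each of these fits leaves 1 library in a group, whose spread is then taken from the other group. In proximal-leaning cells alone it was at 169, 126, 60.9 and 63.1. Of the 28 carriers that were higher in endothelial cells, 21 had a positive log2 difference between hypertension and control in other cells (median 0.18). So did 53 of the 144 that were lower (median -0.11) and 5406 of all 11049 genes (median -0.01). Of these carriers only Slc9a3r2 was called. Slc43a3, at 41.9 and 38.5 against 21.9 and 23.4, was among the 21 and was not called (0.84, edgeR adjusted p 0.189). Slc6a15, a neutral amino acid carrier, was next in p at 76.9 and 96.2 against 160 and 155 (-0.85, adjusted p 0.0981). Leaving out control 1 or control 2 raised the calls over all genes as well as among carriers. Slc9a3r2 and Slc6a15 were called in both fits.

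Between the hypertension models there is 1 library each, so values and counting intervals are given without a test. In endothelial cells 13 of 201 carriers with at least 20 UMIs (6.47%) were more than 2-fold lower in the angiotensin II than in the salt-sensitive library, on the scale of CPM plus 5, and 1 (0.498%) was higher. Over 10698 genes 2.53% were lower and 0.411% higher. All 13 are carriers that fell in endothelial against other cells. Of the 126 such carriers with enough UMIs 99 had a negative log2 ratio (median -0.24), and of the 28 carriers that rose in endothelial cells 7 did (median 0.23). Over the 10698 genes 5806 did (median -0.03). Slc8a1 was at 47.6 (95% exact Poisson interval 42.0 to 53.7) against 249 (234 to 265) CPM (log2 ratio -2.27). Slc7a13, which takes up aspartate and cystine with rBAT, was at 4.71 against 27.2 (-1.73), Slc26a4, the chloride-bicarbonate exchanger pendrin of intercalated cells, at 3.26 against 17.1 (-1.42), and Slc25a21 at 26.4 against 77.4 (-1.39). In other cells the log2 ratios of these 4 genes were -0.94, -0.57, -0.49 and 0.09. Tubule markers in endothelial cells moved the same way, with log2 ratios of -0.70 for the proximal and -0.49 for the distal list. In endothelial cells with at most 1 tubule marker UMI the ratios were -2.23, -1.70, -1.29 and -2.15. Before this limit, the median endothelial cell held 4734 UMIs under angiotensin II and 2343 under the salt-sensitive model. A fixed limit of 1 UMI is stricter in deeper cells, so it does not act equally on both libraries. How far tubule RNA enters these ratios was not tested. Macrophage markers in endothelial cells moved the other way (log2 ratio 1.56), and their part was not tested.

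Slc16a1 was the 1 carrier past 2-fold in the other direction in endothelial cells, at 19.9 (16.4 to 24) in the angiotensin II against 7.31 (4.90 to 10.5) CPM in the salt-sensitive library (log2 ratio 1.02). In other cells it was at 3.76 (1.51 to 7.75) against 16.4 (11.7 to 22.3), from 7 and 40 UMIs (-1.29). There it was the 1 carrier of 219 lower past 2-fold (0.457%, against 0.317% of 11036 genes). Slc39a13, an intracellular zinc carrier, was the 1 higher, at 42.5 (33.6 to 52.9) against 18 (13.1 to 24.2) with a log2 ratio of 1.04, against 0.290% of genes. In other cells without gate UMIs its ratio was 0.82.

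**Figure D5:**
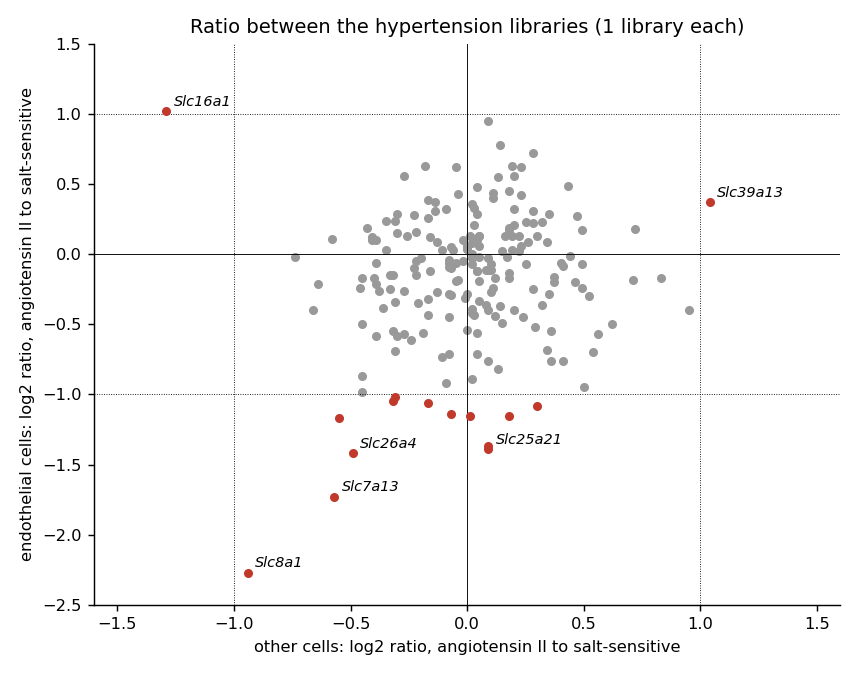
Log2 ratio of the angiotensin II to the salt-sensitive library (CPM plus 5) in other cells (x axis) and endothelial cells (y axis) for the 201 carriers with at least 20 UMIs in both classes, with dotted lines at 2-fold and red points past it in either class. The 13 red points below the lower dotted line have Slc8a1 as their lowest at -2.27, and Slc16a1 stands alone at the upper left.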

How the data were processed

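The members and gene lists were chosen with earlier results of these data known. Per the labels, libraries were made with a 10x 3′ kit, and and the tables deposited by the authors give raw UMI counts for each cell as whole numbers. Cell Ranger 7.0.0, Seurat 4.1 and mm10 are named in the submitters' processing notes, with no role given. The sources used here do not say whether depth was equalised when the controls were joined. All deposited cells were kept, and no doublet caller was run: endothelial cells with at most 1 tubule marker UMI served as an alternative.

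UMIs were summed per library and class over the 11049 shared genes and fitted with edgeR 4.0.16 in R 4.3.3 (TMM, quasi-likelihood test, genes with at least 20 UMIs over the sums, Benjamini-Hochberg over all genes). The fit was first run on simulated counts with a fixed dispersion and no difference between libraries other than depth and the set fold changes. That run does not imitate the spread between models. Ratios with 1 library per group used CPM plus 5, more than 2-fold, with 95% exact Poisson intervals, which cover counting error only. Libraries are pools of animals without replicate pools, so p-values measure the spread between these libraries. DESeq2 1.42.0, other scalings, filters, gates, thinning to 500 UMIs, the joined hypertension table and leaving out each library were tried, and other cells with under 3 macrophage UMIs were added after seeing the data. In the joined hypertension table, the cells shared with the angiotensin II table held 88.2% of the UMIs they had in that table. For the shared salt-sensitive cells this was 100%.

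Genes named in the text were the 12 largest called changes each way between endothelial and other cells with 1 direction in all libraries, the 8 largest each way between leaning cells, the 5 largest called for hypertension (or the 3 of smallest p), the 4 largest each way past 2-fold between models, the 5 of highest level in each class, a short list of endothelial and metal carriers, and families 5, 12 and 34. Others, such as paralogs and partners of these, were chosen after their values were seen. Positions are from the GENCODE annotation of GRCm38, in which 218 of 219 symbols matched, and promoters from RefSeq. A few genes that this rule names are not reported here.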

Additional observations from a re-analysis of the deposited data

Results flagged for a closer look

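Slc16a1, the lactate and pyruvate carrier MCT1, differed between the hypertension models in opposite directions in the 2 cell classes. Its log2 ratio of the angiotensin II to the salt-sensitive library was 1.02 in endothelial cells, from 110 and 29 UMIs, and -1.29 in other cells, from 7 and 40 UMIs. With 1 library per model the difference between the classes was not tested. The ratio in endothelial cells was 0.90 in the joined hypertension table and 0.94 in endothelial cells with at most 1 tubule marker UMI, and that in other cells was -1 in cells without gate UMIs. The gene had no UMI in the endothelial cells of either control library.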

How the results depend on the processing

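Between endothelial and other cells the number of carriers called stayed between 160 and 181 over 16 alternatives, against 172, and none of the 43 genes followed through them changed direction with a call. The 17 calls between leaning cells became 0 with DESeq2, 0 with no library block, 3 with cells thinned to 500 UMIs, 10 in the joined table and 6 with the stricter leaning rule, and 3 to 18 when 1 library was left out. Over all genes 110 were higher and 310 lower in proximal-leaning cells at first. These became 9 and 152 with DESeq2, 7 and 18 with no block and 24 and 68 with thinned cells. They were 50 and 302 in the joined table and 64 and 139 with the stricter rule. For hypertension in endothelial cells the count of 0 became 1 (Slc14a2, lower) in cells with at most 1 tubule marker UMI. There 4 of 10054 genes were higher and 4 lower. For hypertension in other cells the count of 1 became 0 in cells without gate UMIs, where 0 of 11038 genes were called. It became 2 in cells under 3 macrophage UMIs, where 189 of 11049 genes were higher and 5 lower. The count also changed when 1 library was left out, as did that over all genes. Between the models the 14 carriers past 2-fold in endothelial cells became 34 with a pseudocount of 1, 37 at 1.5-fold, 8 with thinned cells and 22 in cells with at most 1 tubule marker UMI. Of all 10698 genes 44 were higher and 271 lower in the angiotensin II library at first. These became 88 and 571 with a pseudocount of 1 and 349 and 810 at 1.5-fold. They were 116 and 220 of 8333 with thinned cells and 55 and 279 of 10001 in cells with at most 1 tubule marker UMI. In other cells the 2 carriers past 2-fold became 1 at 50 UMIs, 17 at 1.5-fold and 5 with thinned cells. Over all genes 32 higher and 35 lower became 28 and 30, 332 and 302, and 92 and 108. The cause of these changes was not tested, apart from the looser threshold and the fewer UMIs. No paired analysis of hypertension was possible because the control barcode endings cannot be matched to a model. Depth limits the control endothelial cells most, above all the 34358 UMIs of control library 1.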

Other observations

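Some carriers were at nearly the same level in both classes of cell. Slc15a2, a carrier of small peptides, was at 119, 123, 116 and 99.1 CPM in endothelial and 123, 131, 116 and 109 in other cells (log2 difference 0.16, SE 0.17), in the order angiotensin II, salt-sensitive, control 1, control 2. The value of control 1 in endothelial cells rests on 4 UMIs. Slc10a7 was at 73.3, 70.9, 29.1 and 87.4 against 90.3, 95, 112 and 83.2 (-0.06, SE 0.21), and Slc25a46, a protein of the outer mitochondrial membrane, at 34.7, 30.3, 29.1 and 43.7 against 44.6, 38.9, 39.8 and 35 (0.02, SE 0.20). None of the 3 was called by edgeR, which does not show that their levels are equal. These genes were chosen after their values were seen.

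Ascorbate carriers were divided like the heavy chains. Slc23a2, the widespread vitamin C carrier, was at 88.1, 67.3, 29.1 and 72.9 CPM in endothelial and 52.2, 51.2, 51.1 and 43.1 in other cells (0.83, SE 0.20), and rose in 3 of 4 libraries. Slc23a1, its epithelial relative, was at 2.53, 5.30, 116 and 2.91 against 88.2, 74.1, 114 and 109 (-3.94, SE 0.39). In control library 1, with 19 endothelial cells, neither gene kept its direction.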
